A study of Mus musculus with 18 samples.

Results

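The 10 genes described here make, inactivate, carry and sense prostaglandin E2. They were taken from a list of genes of this pathway, and their transcript levels were summed per gene among 24963 genes in all. The cyclooxygenases were Ptgs1 and Ptgs2, the terminal prostaglandin E synthases Ptges, Ptges2 and Ptges3, the inactivating dehydrogenase Hpgd, the carriers Slco2a1 and Abcc4, and the receptors Ptger2 and Ptger4. Total RNA was sequenced from granulosa cells (the somatic lining of ovarian follicles) of mice of 3 strains that lack progesterone receptor (PGR). This nuclear receptor has a longer form, PGR-B, and a shorter one, PGR-A. PRKO mice (allele Pgr tm1Bwo) are null for both isoforms, PRAKO mice (Pgr tm1Omc) for PGR-A alone and PRBKO mice (Pgr tm2Omc) for PGR-B alone, and the knockout (KO) mice of a strain were compared with wildtype (WT) mice of that strain. Females of 21 to 27 days received 5 IU of equine chorionic gonadotropin, 46 h later 5 IU of human chorionic gonadotropin (hCG, given in place of the luteinizing hormone surge), and were killed 8 h after hCG. Each library came from the pooled cells of 3 mice, and the 6 groups had 3 libraries each, 18 in all. The KO alleles are present in every cell of the mouse, and cells were released by follicle puncture without sorting, so other ovarian cells can be in a library. The comparisons ask which of these genes depend on PGR, and on which isoform.

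Prostaglandins are made when cyclooxygenase turns arachidonic acid into the unstable intermediate prostaglandin H2, which terminal synthases then convert. In the ovulatory follicle the hCG or luteinizing hormone signal induces Ptgs2 in granulosa and cumulus cells, and prostaglandin E2 acts through the receptors EP2 and EP4 on cumulus expansion and follicle rupture. The prostaglandin transporter Slco2a1 brings prostaglandin into cells, where 15-hydroxyprostaglandin dehydrogenase (Hpgd) starts its breakdown, while Abcc4 exports it.

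Levels were in TPM, a unit that scales every library to the same sum and keeps no read depth. Protein-coding genes held 37.3% to 61.2% of TPM, with the highest shares in the PRBKO KO libraries (50.9% to 61.2%), and between 13434 and 14614 genes reached 1 TPM. Over all tested genes the log2 fold change had a median of -0.10 (PRKO), 0.22 (PRAKO) and 0.22 (PRBKO), so changes are also given relative to it. The granulosa markers Fshr, Lhcgr and Cyp11a1 were detected in every group. Pgr, as a gene total, was at 2.01, 2.09 and 1.73 TPM in PRKO WT libraries and 1.93, 1.49 and 2.67 TPM in KO. PRAKO had 0.900, 0.829 and 1.10 TPM in WT and 8.36, 11.2 and 12.4 TPM in KO, and PRBKO had 1.49, 6.24 and 1.41 TPM in WT and 2.62, 4.88 and 3.10 TPM in KO. A gene total does not separate the isoforms or a transcript that makes no receptor, so it checks no label. In RNA of bulk cells, fewer cells of a type and less RNA per cell cannot be told apart, and since cells of 3 mice were pooled, p-values measure the spread between pools.

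Slco2a1 and Ptgs1 were lower in the KO cells of PRKO and PRAKO. Slco2a1 fell 2.45-fold in PRKO and 4.72-fold in PRAKO, and Ptgs1 fell 2.78-fold in PRKO and was 1.75-fold lower in PRAKO, short of the fold limit. In PRBKO no member was called, and Ptgs2 had the lowest p, at 1.67-fold higher in KO. A gene was called in limma, per strain, when its Benjamini-Hochberg adjusted p did not exceed 0.01 and its log2 fold change was 1 or more in either direction (the fold limit), among genes with at least 1 TPM in 3 of the 6 libraries. Of the 10 genes 9 were tested in each strain, and Ptger2 was under that filter in all of them. In PRKO 2 of 9 members fell and none rose, against 1.82% of all genes tested lower and 0.316% higher. In PRAKO 1 of 9 fell and none rose, against 1.21% lower and 0.841% higher. In PRBKO 0 of 9 were called in limma, against 0.133% of all genes in either direction, and 4 of 9 had an unadjusted p under 0.05, as 31.1% of all genes did.

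**Figure D1:**
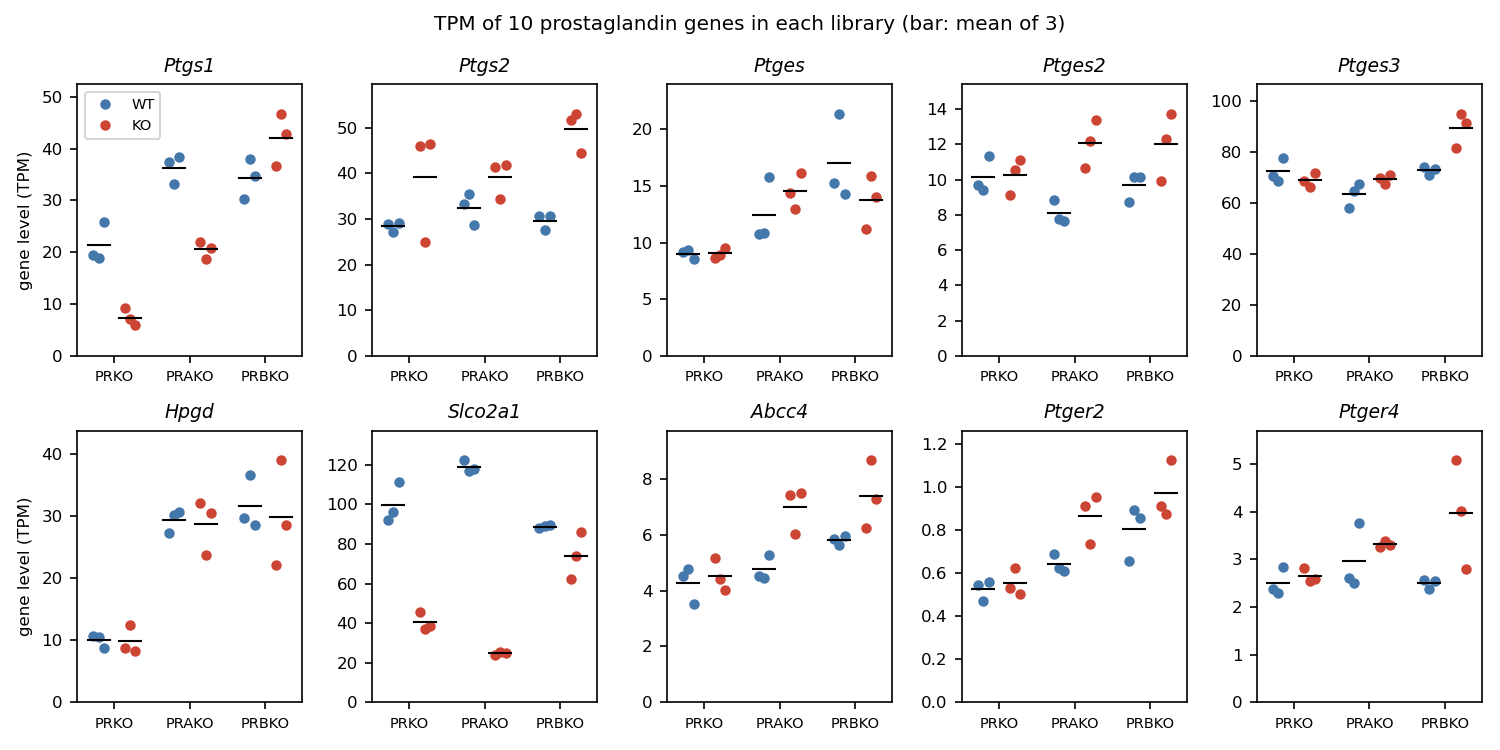
Level of each of the 10 genes in TPM (vertical axis, linear, from 0) in every library, by strain, with WT in blue and KO in red and a bar at the mean of 3 libraries. The KO libraries lie below all WT libraries for Slco2a1 in each strain and for Ptgs1 in PRKO and PRAKO, while Ptger2 stays near or under 1 TPM throughout.

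**Figure D2:**
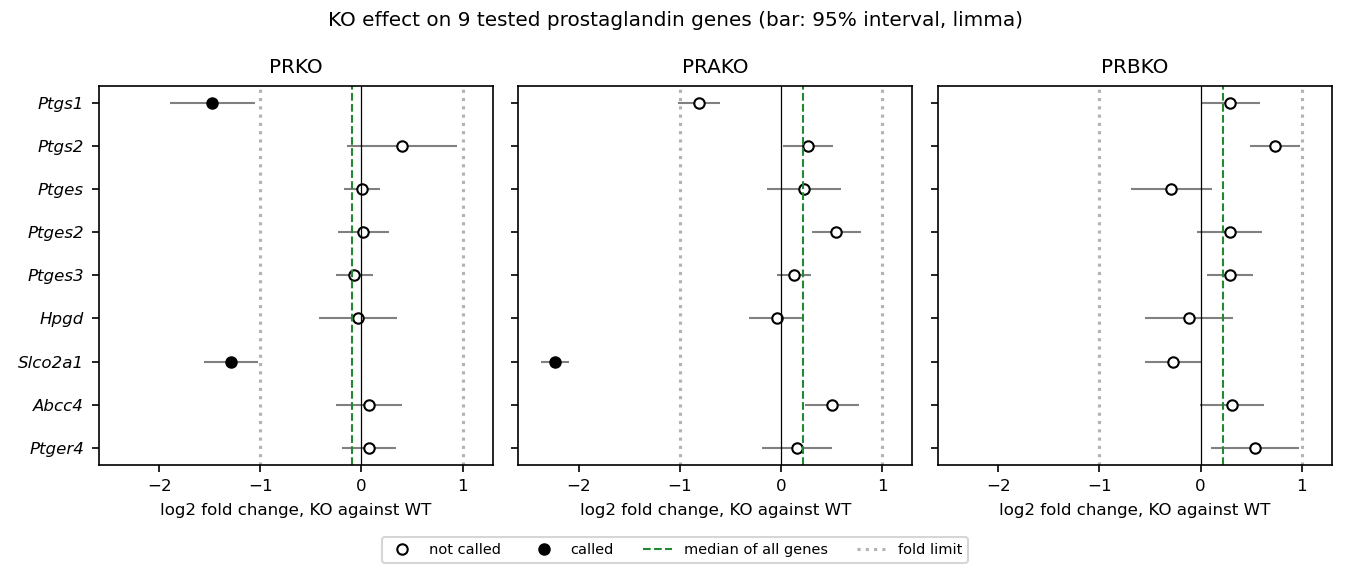
Log2 fold change of KO against WT with its 95% interval (horizontal axis) for the 9 tested genes in each strain, filled where called. The dashed line marks the median of all genes (-0.10, 0.22 and 0.22) and the dotted lines the fold limit, and the filled points are Ptgs1 and Slco2a1 in PRKO and Slco2a1 in PRAKO.

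By count of libraries, KO and WT did not overlap for 2 of the 9 tested members in PRKO, both lower in KO, where 25.6% of all genes were lower in this sense, and for none higher, where 6.37% of all genes were. In PRAKO 2 members were lower without overlap (6.30% of all genes) and 2 higher (45.0%), and in PRBKO 1 was lower (1.21%) and 4 were higher (33.5%). The tested members had a median log2 fold change of 0.00 (PRKO), 0.16 (PRAKO) and 0.29 (PRBKO), which is 0.10 above, 0.06 below and 0.07 above the median of all genes.

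The cyclooxygenases make prostaglandin H2, Ptgs1 (cyclooxygenase 1) being present in many resting tissues and Ptgs2 (cyclooxygenase 2) being inducible. In GRCm38.p6 Ptgs1 lies at chr2:36216742-36258593 and Ptgs2 at chr1:150100031-150108234. The 250 bases before the start that RefSeq's promoter table uses are shown for each because the levels of the pair did not move together in KO cells. The windows are on the plus strand at chr2:36230176-36230425 for Ptgs1, where GENCODE M21 has no exon and the start used lies 13684 bases inside the gene's span, and at chr1:150099781-150100030 for Ptgs2, whose first 183 bases overlap exons of the antisense transcript Ptgs2os. Capitals mark matches to any of 10 motifs listed after the sequences.
Ptgs1: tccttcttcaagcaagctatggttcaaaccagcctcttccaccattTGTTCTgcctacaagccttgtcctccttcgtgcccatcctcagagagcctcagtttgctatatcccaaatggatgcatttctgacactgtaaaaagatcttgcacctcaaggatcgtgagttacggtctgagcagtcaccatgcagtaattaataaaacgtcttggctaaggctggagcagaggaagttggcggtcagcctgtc
Ptgs2: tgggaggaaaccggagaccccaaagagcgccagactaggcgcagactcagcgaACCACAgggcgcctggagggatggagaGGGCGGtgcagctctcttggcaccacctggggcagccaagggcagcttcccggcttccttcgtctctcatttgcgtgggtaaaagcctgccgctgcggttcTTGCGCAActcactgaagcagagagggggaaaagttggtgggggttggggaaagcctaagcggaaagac
All motifs were searched on both strands. In Ptgs1 the match is the 6-base element of progesterone and glucocorticoid receptors (TGTTCT), 204 bases before the start, a motif found in 13.6% of the 250-base windows of protein-coding genes. Reading Ptgs2 from its left end, the matches are a RUNX site (TGTGGT, 11.9% of windows), a GC box (GGGCGG, 44.4%) and a C/EBP site (TTGCNNAA, 8.96%), which lie 197, 170 and 69 bases before the start. Neither window holds ACANNNTGT, the centre of an inverted repeat of that element (5.16%), TGACG, from the cAMP response element (20.8%), the E-box CACGTG (6.90%), the AP-1 site TGANTCA (6.23%), the NR5A site AAGGTCA (3.53%) or the TATA box TATAAA (11.4%). Over all 10 genes TGTTCT was in the window of 4, namely Ptgs1, Ptges, Abcc4 and Ptger2. Bases after the start were not searched, so an absence holds for these 250 bases only and not for the gene's promoter as a whole. Such matches are letters in a window, and binding was not measured in these libraries.

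In PRKO, Ptgs1 was at 19.5, 18.8 and 25.8 TPM in WT and 9.16, 7.04 and 5.98 TPM in KO. Every KO library was below the lowest WT library. The log2 fold change was -1.48 ± 0.18 (SE, n = 3 per group, adjusted p = 0.00288 in limma), or -1.38 relative to the median of all genes. The call was lost when WT replicate 1 or 3 or KO replicate 2 or 3 was left out, at adjusted p of 0.0102 to 0.0179 and log2 fold changes of -1.53 to -1.34. In PRAKO, Ptgs1 was at 37.4, 33.1 and 38.4 TPM in WT and at 22.0, 18.7 and 20.8 TPM in KO, again with no overlap. Its log2 fold change there was -0.81 ± 0.09 (adjusted p = 0.000809), which missed the fold limit as deposited. It was -1.02 with median-of-ratios size factors and with TPM rescaled to protein-coding genes, and called in both. Without a fold limit and at an adjusted p of 0.05, Ptgs1 and Slco2a1 passed as lower in PRAKO, as 4.51% of all genes did. In PRBKO the levels were 30.2, 37.9 and 34.7 TPM in WT and 36.7, 46.7 and 42.9 TPM in KO, which overlap. The log2 fold change was 0.29 ± 0.13 (adjusted p = 0.160), 0.07 above the median of all genes, and -0.018 after rescaling to protein-coding genes.

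Platelets also express Ptgs1, so their markers were set beside it. The summed level of 10 platelet and megakaryocyte markers was 62.4 to 67.3 TPM in PRKO WT and 58.7 to 72.5 TPM in PRKO KO, and 33.5 to 40.4 TPM in PRAKO WT and 52.4 to 55.7 TPM in PRAKO KO. Most of the sum was Itgb3, an integrin subunit that other cells also make (mean ± SD of 58.2 ± 2.77 TPM in PRKO WT and 57.8 ± 7.53 TPM in PRKO KO), while the platelet chemokine Ppbp was at 0.0602 ± 0.0858 TPM in PRKO WT and 0.0332 ± 0.0289 TPM in PRKO KO. The part of platelets in the level of Ptgs1 was not tested.

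Ptgs2 did not follow Ptgs1. In PRKO it was at 28.9, 27.1 and 29.1 TPM in WT and at 45.9, 25.0 and 46.3 TPM in KO. A pair of KO libraries was above all WT libraries and KO replicate 2 below them, giving a log2 fold change of 0.40 ± 0.23 (adjusted p = 0.338, 95% interval -0.14 to 0.94). Without KO replicate 2 it was 0.69 (adjusted p = 0.00619), and without KO replicate 1 or 3 it was 0.26 or 0.25 (adjusted p of 0.520 and 0.662), none of them called. In PRAKO the levels were 33.3, 35.4 and 28.7 TPM in WT and 41.4, 34.4 and 41.8 TPM in KO, with KO replicate 3 inside the WT range and a log2 fold change of 0.27 ± 0.11 (adjusted p = 0.0841), close to the median of all genes. In PRBKO it was at 30.6, 27.5 and 30.6 TPM in WT and at 51.7, 53.1 and 44.5 TPM in KO, every KO library above every WT library. The difference of 0.74 ± 0.11 (adjusted p = 0.0161, 0.52 above the median of all genes) missed both limits of a call. It was 0.43 to 0.50 under the 3 other scalings, where the adjusted p in limma was 0.101 to 0.117. With an adjusted p of 0.05 and no fold limit, Ptgs2 passed in PRBKO, as 3.27% of all genes did in that direction.

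The ratio of Ptgs2 to Ptgs1 within a library does not depend on how libraries are scaled. It was 1.49, 1.44 and 1.13 in PRKO WT and 5.01, 3.55 and 7.74 in PRKO KO. In PRAKO it was 0.890, 1.07 and 0.747 in WT and 1.88, 1.83 and 2.01 in KO, and in PRBKO 1.01, 0.727 and 0.882 in WT and 1.41, 1.14 and 1.04 in KO. The groups did not overlap in any strain, which gave an exact two-sided permutation p of 0.1 in each (0.18 after Benjamini-Hochberg adjustment over 18 ratio comparisons), the smallest that 3 libraries against 3 allow. Ptgs2 was the higher of the pair in all PRKO libraries and in all KO libraries of the other strains, by the widest margin in PRKO KO.

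**Figure D3:**
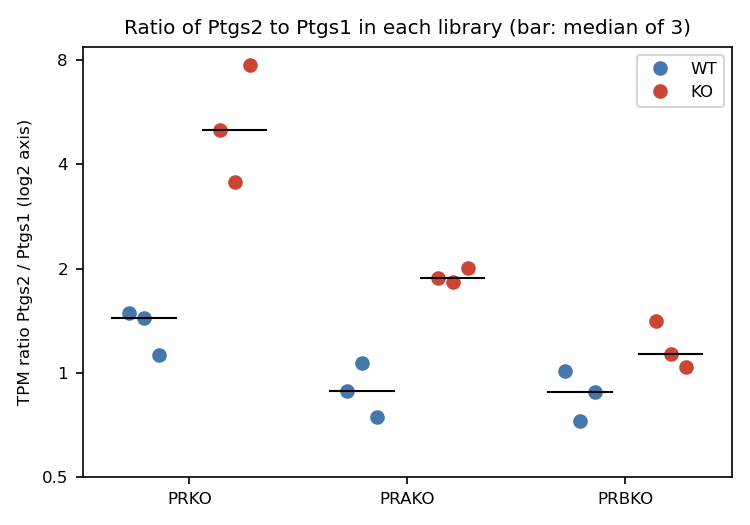
Ratio of Ptgs2 to Ptgs1 TPM (vertical axis, log2 scale) in each library, WT in blue and KO in red, with a bar at the median of 3 libraries. The median went from 1.44 in WT to 5.01 in KO in PRKO, from 0.890 to 1.88 in PRAKO and from 0.882 to 1.14 in PRBKO.

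The terminal synthases were not called in any strain in limma. Ptges, the microsomal synthase that is inducible and couples with Ptgs2 (chr2:30889471-30931020), was at 9.17, 9.33 and 8.53 TPM in PRKO WT and 8.68, 8.92 and 9.51 TPM in PRKO KO, a log2 fold change of 0.00 ± 0.08 with a 95% interval of -0.17 to 0.18. In PRAKO it was at 10.8, 10.8 and 15.8 TPM in WT and 14.4, 13.0 and 16.2 TPM in KO, and in PRBKO at 15.3, 21.4 and 14.3 TPM in WT and 11.2, 15.9 and 14.0 TPM in KO. The groups overlapped in each strain, and the log2 fold changes of 0.23 ± 0.16 in PRAKO and -0.29 ± 0.18 in PRBKO had adjusted p of 0.267 and 0.272. Ptges2, another membrane-associated synthase (chr2:32395890-32402740), stood out in PRAKO only by its p. It was at 8.83, 7.79 and 7.64 TPM in WT and 10.7, 12.2 and 13.4 TPM in KO, with no overlap and a log2 fold change of 0.55 ± 0.11 (adjusted p = 0.00902, 0.33 above the median of all genes), under the fold limit. With Abcc4 it passed an adjusted p of 0.05 with no fold limit in PRAKO, as 30.0% of all genes did in that direction. In PRKO Ptges2 was at 9.70, 9.40 and 11.3 TPM in WT and 9.14, 10.6 and 11.1 TPM in KO (0.02 ± 0.11, adjusted p = 0.947), and in PRBKO at 8.74, 10.2 and 10.2 TPM in WT and 9.94, 12.3 and 13.8 TPM in KO (0.29 ± 0.14, adjusted p = 0.197). Both pairs of groups overlapped.

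Ptges3, the cytosolic synthase that is also the p23 co-chaperone of steroid receptors (chr10:128058982-128077254), was the most abundant of the enzymes. Its WT levels ran from 58.0 to 77.6 TPM over the 9 WT libraries, with a median of 70.7 TPM. In PRKO it was at 70.7, 68.6 and 77.6 TPM in WT and 68.4, 66.3 and 71.6 TPM in KO, and in PRAKO at 58.0, 64.7 and 67.4 TPM in WT and 69.8, 67.2 and 70.8 TPM in KO. These groups overlapped, with log2 fold changes of -0.07 ± 0.08 (adjusted p = 0.639) and 0.13 ± 0.07 (adjusted p = 0.186). In PRBKO it was at 74.0, 71.0 and 73.3 TPM in WT and 81.6, 94.9 and 91.3 TPM in KO. These did not overlap, and the difference of 0.29 ± 0.10 (adjusted p = 0.10) was 0.07 above the median of all genes and turned to -0.022 when TPM was rescaled to protein-coding genes.

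Hpgd, which oxidizes prostaglandin E2 to an inactive product (chr8:56294552-56321046), was not called in any strain. In PRKO it was at 10.7, 10.6 and 8.78 TPM in WT and 8.78, 12.5 and 8.32 TPM in KO. In PRAKO the levels were 27.3, 30.1 and 30.7 TPM in WT and 32.1, 23.7 and 30.5 TPM in KO, and in PRBKO 29.7, 36.6 and 28.6 TPM in WT and 22.1, 39.1 and 28.5 TPM in KO. KO libraries lay on both sides of the WT libraries in each strain, and the log2 fold changes were -0.04 ± 0.16, -0.04 ± 0.12 and -0.11 ± 0.19 (adjusted p of 0.918, 0.782 and 0.697). The level differed more between strains than between genotypes. All 6 PRKO libraries were at 8.32 to 12.5 TPM and all 12 others at 22.1 to 39.1 TPM, which were read from a separate table for each strain and not tested, so strain and processing cannot be told apart.

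Slco2a1, the prostaglandin uptake carrier, had the highest level of the 10 genes in WT libraries, with 87.9 to 122 TPM. It lies at chr9:103007061-103096002, on the chromosome of Pgr (chr9:8898900-8968611) and 94.0 Mb from it. Of its window the 30 bases that hold a TATA box are shown, because this is the member that fell in both strains that lack PGR-A. The stretch is on the plus strand at chr9:103008446-103008475 in GRCm38.p6, with TATAAA in capitals 29 bases before the RefSeq start, and inside the longer first exon that GENCODE M21 gives this gene.
Slco2a1: atcgctgccactTATAAAaacttctgggcg
The TATA box was in no other member's window, and the window of Slco2a1 held a GC box but no TGTTCT.

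In PRKO, Slco2a1 was at 91.9, 96.0 and 111 TPM in WT and at 45.8, 37.0 and 38.5 TPM in KO. Every KO library was below every WT library by a wide margin. Its log2 fold change was -1.29 ± 0.11 (adjusted p = 0.000783), or -1.20 relative to the median of all genes. In PRAKO it was at 122, 117 and 118 TPM in WT and at 24.0, 25.4 and 25.1 TPM in KO, a log2 fold change of -2.24 ± 0.06 (adjusted p = 1.94e-06), or -2.46 relative to the median. Both calls held under every alternative run, with log2 fold changes of -1.38 to -1.17 in PRKO and -2.45 to -2.22 in PRAKO. In PRBKO the levels were 87.9, 88.8 and 89.4 TPM in WT and 62.3, 73.8 and 85.8 TPM in KO. All KO libraries were below the WT libraries, but they spread widely. The log2 fold change of -0.27 ± 0.12 (adjusted p = 0.168, 0.49 below the median of all genes) was not called. It was -0.51, -0.56 and -0.59 with median-of-ratios size factors, quantile normalization and rescaling to protein-coding genes. The adjusted p in limma was then 0.0488, 0.0388 and 0.0368. Over all alternatives run it was -0.59 to -0.16 (adjusted p of 0.0326 to 0.376), and none of them called it.

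Its transcript NM_033314 held 92.4% to 100% of the gene in a library. The non-coding transcript NR_157194 was at 4.76 ± 1.01 TPM in PRKO WT and 0.596 ± 0.356 TPM in PRKO KO, and at 5.07 ± 0.635 TPM in PRAKO WT and 0.138 ± 0.240 TPM in PRAKO KO (mean ± SD, n = 3). It was at 3.88 ± 1.20 TPM in PRBKO WT and 3.59 ± 0.989 TPM in PRBKO KO. As a share of the gene it was 3.26% to 5.82% in PRKO WT and 0.753% to 2.16% in PRKO KO, so the groups did not overlap in share either. These splits are estimates from reads that the transcripts share, and they were not tested.

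Endothelial cells also express Slco2a1. The summed level of 12 markers of blood endothelium was 85.6 to 90.8 TPM in PRKO WT and 62.5 to 82.0 TPM in PRKO KO, 48.7 to 54.9 TPM in PRAKO WT and 26.1 to 32.8 TPM in PRAKO KO, and 40.1 to 51.1 TPM in PRBKO WT and 52.1 to 59.5 TPM in PRBKO KO. None of the 12 was at 0 in a whole group. Much of the fall in the sum was Cdh5, vascular endothelial cadherin, at 27.5 ± 2.33 TPM in PRKO WT and 15.7 ± 2.25 TPM in PRKO KO (log2 fold change -0.79, adjusted p = 0.00765) and at 28.0 ± 2.22 and 9.33 ± 1.05 TPM in PRAKO (-1.54, adjusted p = 6.68e-05). Without Cdh5 the sum of 11 markers was 59.3 to 60.6 TPM in PRKO WT and 49.2 to 64.2 TPM in PRKO KO, and 21.3 to 25.0 TPM in PRAKO WT and 17.8 to 22.8 TPM in PRAKO KO, overlapping in both. Leaving out a gene that fell in these same data must shrink the fall of the sum, so this overlap tests nothing. In PRKO 10 of the 11 tested markers had a log2 fold change under 0, beside a median of all genes of -0.10. All KO libraries were below WT for 6 of the 11, as for 25.6% of all genes. Among the 6 was the tight junction gene Cldn5 (-0.77, adjusted p = 0.00700, not called), while Kdr, a receptor of vascular endothelial growth factor, was at 0.55 (adjusted p = 0.0370). In PRAKO 6 of 9 tested were under 0, beside a median of all genes of 0.22. All KO libraries were below WT for 1 of the 9, as for 6.30% of all genes. The part of endothelial cells in the level of Slco2a1 was not tested.

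Abcc4, a multidrug resistance protein that exports prostaglandins (chr14:118482692-118707856), was at 4.54, 4.77 and 3.52 TPM in PRKO WT and 5.15, 4.40 and 4.00 TPM in PRKO KO. The groups overlapped, with a log2 fold change of 0.08 ± 0.14 (adjusted p = 0.793). The PRAKO libraries were at 4.54, 4.46 and 5.26 TPM in WT and 7.43, 6.03 and 7.48 TPM in KO, with no overlap and a difference of 0.51 ± 0.12 (adjusted p = 0.0163, 0.29 above the median of all genes), which was not called. In PRBKO it was at 5.83, 5.64 and 5.96 TPM in WT and 6.25, 8.66 and 7.26 TPM in KO, also with no overlap and with a difference of 0.31 ± 0.14 (adjusted p = 0.166). The main transcript NM_001163675 held 65.4% to 86.2% of the gene, and the share of NM_001033336 went down to 0 in single libraries of a group. NM_001163676 was at 0 in every library of PRKO KO and PRAKO WT and in some of PRKO WT, PRAKO KO and PRBKO KO. Within a library, Slco2a1 was 20.1 to 31.6 times Abcc4 in PRKO WT and 8.41 to 9.63 times in PRKO KO, 22.4 to 27.0 and 3.23 to 4.20 times in PRAKO, and 15.0 to 15.7 and 8.51 to 11.8 times in PRBKO. These ranges did not overlap in any strain, and the exact two-sided permutation p was 0.1 in each.

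**Figure D4:**
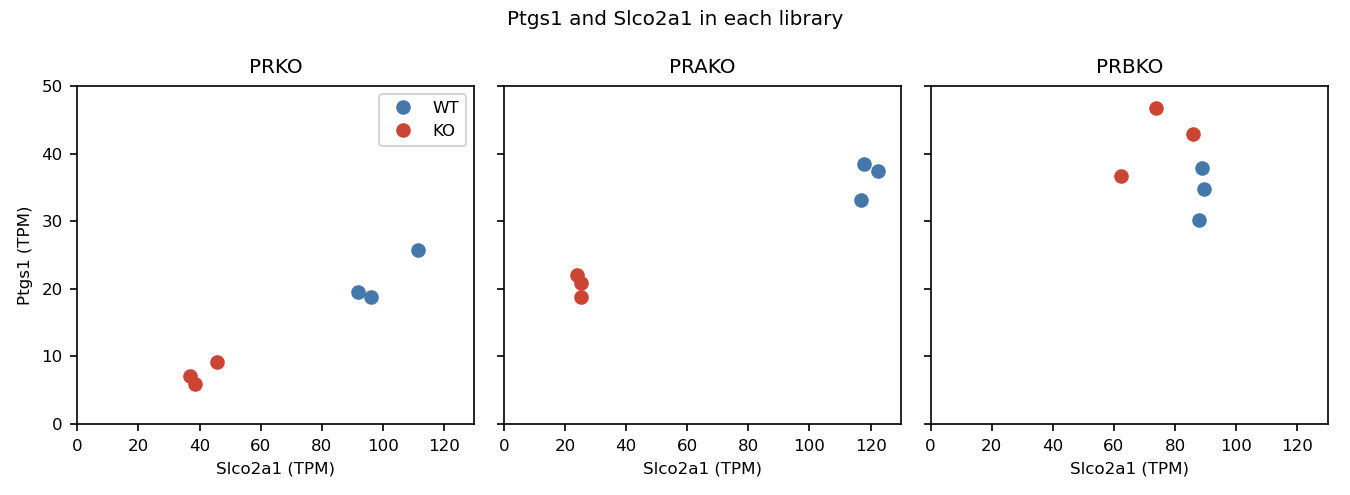
Ptgs1 (vertical axis, TPM) against Slco2a1 (horizontal axis, TPM) in each library, WT in blue and KO in red, a panel per strain. KO libraries are lower on both axes in PRKO and PRAKO, and in PRBKO they are lower in Slco2a1 while Ptgs1 overlaps.

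Within a library, Ptgs1 was also set against Slco2a1. The ratio of Ptgs1 to Slco2a1 was 0.212, 0.196 and 0.232 in PRKO WT and 0.200, 0.190 and 0.155 in PRKO KO, which overlap (exact permutation p = 0.2). In PRAKO it was 0.306, 0.283 and 0.326 in WT and 0.918, 0.740 and 0.830 in KO, with no overlap (exact permutation p = 0.1). The inverse fold of Ptgs1 was 2.78 beside 2.45 for Slco2a1 in PRKO, and 1.75 beside 4.72 in PRAKO.

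The receptors EP2 (Ptger2, chr14:44988111-45003820) and EP4 (Ptger4, chr15:5233399-5244187) both raise cyclic AMP when prostaglandin E2 binds. Ptger4 was at 2.38, 2.29 and 2.85 TPM in PRKO WT and 2.82, 2.55 and 2.58 TPM in PRKO KO (log2 fold change 0.07 ± 0.11, adjusted p = 0.748). The PRAKO levels were 2.62, 2.50 and 3.76 TPM in WT and 3.26, 3.40 and 3.31 TPM in KO (0.16 ± 0.15, adjusted p = 0.400). The groups overlapped in both strains. In PRBKO it was at 2.58, 2.38 and 2.54 TPM in WT and 5.09, 4.02 and 2.80 TPM in KO, all KO libraries above WT but 1 of them only just, and the difference of 0.54 ± 0.19 (adjusted p = 0.109) was not called. Its transcripts NM_001136079 and NM_008965 each held between 20.2% and 79.8% of the gene in a library, with no split that held within a group. Ptger2 was at 0.470 to 0.626 TPM in the 6 PRKO libraries, at 0.611 to 0.690 TPM in PRAKO WT and 0.734 to 0.954 TPM in PRAKO KO, and at 0.656 to 0.895 TPM in PRBKO WT and 0.874 to 1.13 TPM in PRBKO KO. With no filter on low values its log2 fold changes were 0.04 ± 0.09, 0.26 ± 0.11 and 0.18 ± 0.14 (adjusted p of 0.871, 0.140 and 0.466). At values this low the pseudocount of 0.5 TPM pulls a fold change toward 0.

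Ordered by their median over the 9 WT libraries, Slco2a1 (96.0 TPM) and Ptges3 (70.7 TPM) came first, followed by Ptgs1 (33.1 TPM), Ptgs2 (29.1 TPM) and Hpgd (28.6 TPM), then Ptges (10.8 TPM) and Ptges2 (9.40 TPM), and last Abcc4 (4.77 TPM), Ptger4 (2.54 TPM) and Ptger2 (0.622 TPM). TPM is a level per transcript length, so it can be set across genes. These medians pool 3 strains, and the order did not hold in each. In PRKO WT Ptgs2 was above Ptgs1 in every library, and Hpgd (8.78 to 10.7 TPM) overlapped Ptges (8.53 to 9.33 TPM) and Ptges2 (9.40 to 11.3 TPM). Over the 9 WT libraries every neighbour from Ptgs1 down to Ptges2 overlapped the next in range, as did Abcc4 and Ptger4, so these were not separated. Slco2a1 and Ptges3 did not overlap, with 87.9 TPM as the lowest value of the former and 77.6 TPM as the highest of the latter.

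Whether a KO effect differed between strains was tested as a contrast of the strains' log2 fold changes over all 18 libraries, with the same thresholds. Ptgs1 was lower in KO by more in PRKO than in PRBKO, with effects of -1.48 and 0.29 and a difference of -1.77 ± 0.21 (adjusted p = 1.88e-05). Between PRAKO and PRBKO the Ptgs1 effects of -0.81 and 0.29 differed by -1.10 ± 0.21 (adjusted p = 0.00302). This call was lost at adjusted p of 0.0104 to 0.0113 without PRAKO WT replicate 3, PRAKO KO replicate 3, PRBKO WT replicate 1 or PRBKO KO replicate 2. For Slco2a1 the effects of -2.24 in PRAKO and -0.27 in PRBKO differed by -1.97 ± 0.15 (adjusted p = 4.48e-07), also under every alternative run. Its effects in PRKO and PRBKO differed by -1.02 ± 0.15 (adjusted p = 0.000132), which was just past the fold limit, and was -0.61 to -0.68 and not called under the 3 other scalings, with adjusted p of 0.000728 to 0.00157, and -0.97 with array weights. Leaving out PRKO WT replicate 3, PRKO KO replicate 2 or 3 or PRBKO KO replicate 3 also took it under the fold limit, at -0.91 to -0.99.

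Between PRKO and PRAKO, 0 of 9 members were called in limma and 4 of 9 had an unadjusted p under 0.05, against 0.529% of all genes called and 40.9% at that p. The Slco2a1 effects of -1.29 and -2.24 differed by 0.95 ± 0.15 (adjusted p = 0.00238), short of the fold limit by a small margin. Relative to the median difference of all genes it was 1.25, and it was called at 1.21 to 1.27 under the 3 other scalings, and at 1.03 and 1.01 without PRKO WT replicate 3 or PRKO KO replicate 2. For Ptgs1 the difference was -0.67 ± 0.21 (adjusted p = 0.0450), not called. Between PRKO and PRBKO 2 of 9 members were called, against 3.85% of all genes, and between PRAKO and PRBKO 2 of 9, against 2.12%. Ptgs2 did not differ past the limits in any pair, with differences of 0.13 (95% interval -0.39 to 0.66), -0.34 (-0.86 to 0.19) and -0.47 (-0.99 to 0.05) in the order PRKO less PRAKO, PRKO less PRBKO and PRAKO less PRBKO. The contrasts share each strain's libraries and are not independent of each other.

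The rest of the pathway was followed in 6 lists, and a place on a list does not show that a gene handles prostaglandin. Phospholipases release arachidonic acid, and of this list 2 of 16 tested genes fell in PRKO, 1 of 13 in PRAKO and 0 of 16 in PRBKO, with none that rose. Of all genes 1.82% fell in PRKO and 1.21% in PRAKO, and 0.133% were called in either direction in PRBKO. With limma, 6 of 16, 9 of 13 and 8 of 16 had an unadjusted p under 0.05 in PRKO, PRAKO and PRBKO, beside 24.8%, 49.5% and 31.1% of all genes, and such counts for the other lists are to be read against these shares. Pla2r1, a receptor of secreted phospholipases A2, fell from 4.94 ± 0.647 to 0.792 ± 0.0697 TPM in PRKO (log2 fold change -2.07 ± 0.13, adjusted p = 0.000240) and from 3.91 ± 0.650 to 0.929 ± 0.186 TPM in PRAKO (-1.63 ± 0.16, adjusted p = 0.000439), and was at 4.98 ± 0.599 and 4.13 ± 0.410 TPM in PRBKO WT and KO. The lysosomal phospholipase Pla2g15 fell from 18.4 ± 1.41 to 8.13 ± 0.883 TPM in PRKO (-1.13 ± 0.10, adjusted p = 0.000817), and its log2 fold change was -0.57 in PRAKO and 0.35 in PRBKO. The genes of next smallest p were not called, namely Acsl4, a ligase that prefers arachidonate (0.65, 0.86 and 0.62 in PRKO, PRAKO and PRBKO), Pla2g7, which degrades platelet-activating factor (0.99, 0.63 and 0.64), and the secreted phospholipase Pla2g5 (-0.87 in PRKO).

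Among other prostanoid receptors, Ptgfr, the receptor of prostaglandin F2 alpha, rose in PRAKO from 7.47 ± 0.819 to 31.9 ± 1.61 TPM (log2 fold change 2.03 ± 0.09, adjusted p = 1.19e-05). It was at 31.0 ± 8.08 and 40.9 ± 5.09 TPM in PRKO WT and KO (0.43 ± 0.20, adjusted p = 0.249) and at 15.3 ± 1.43 and 24.8 ± 3.96 TPM in PRBKO (0.67 ± 0.14, adjusted p = 0.0376). It was the 1 of 3 tested receptors called in PRAKO, where 0.841% of all genes rose, and 0 of 3 were called in PRKO or PRBKO. In each of those 2 strains 1 of 3 had an unadjusted p under 0.05. The other tested members were Ptger3 (0.28, 0.20 and 0.06) and Ptgfrn, a partner protein of that receptor (-0.49, -0.11 and 0.05). The remaining 5 receptors of the list were under the filter.

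Of the list of inactivating enzymes and other transporters, Slc22a17 rose in PRAKO from 14.4 ± 1.94 to 31.3 ± 3.24 TPM (1.10 ± 0.12, adjusted p = 0.000734). Whether it carries prostaglandin was not tested. It was 1 of 8 tested in PRAKO, where 0.841% of all genes rose, while 0 of 7 were called in PRKO and 0 of 9 in PRBKO, where 6 and 2 had an unadjusted p under 0.05. Zadh2, a prostaglandin reductase, was at 0.27, 0.45 and 0.27 on the log2 scale, the exporter Abcc1 at 0.39, 0.49 and 0.36, and Slco3a1, an organic anion carrier, at -0.40, 0.10 and 0.01. None of the other prostanoid synthases was called in limma (0 of 11, 0 of 11 and 0 of 12, with 2, 7 and 4 at an unadjusted p under 0.05). Among them Prxl2b, a prostaglandin F synthase, was at 0.96 ± 0.10 in PRAKO (adjusted p = 0.000632), just under the fold limit, and Akr1c14 and Cbr1 at 0.47 and 0.45 there.

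In the list of the lipoxygenase and leukotriene branch 0 of 9, 0 of 8 and 0 of 10 genes were called in limma, with 2, 5 and 2 at an unadjusted p under 0.05. That list also holds Ephx2 and the cytochrome P450 genes Cyp2j6, Cyp4f13 and Cyp4f14, which are not lipoxygenases. Ephx2, the soluble epoxide hydrolase of arachidonate epoxides, had log2 fold changes of -0.75, -0.52 and 0.33 in PRKO, PRAKO and PRBKO, Lta4h -0.11, 0.36 and 0.22, and Alox5ap 0.47, 0.44 and 0.73. The 12 ovulatory genes linked to EP2 and EP4 were all tested and 0 of 12 were called in each strain, with 5 of 12 at an unadjusted p under 0.05 in each. Of these the EGF-like ligand Btc was at 0.96, 0.90 and 0.42, the cumulus matrix gene Tnfaip6 at 0.27, 0.03 and 0.90, and the cholesterol carrier Star at -0.28, 0.16 and 0.63. The list medians were 0.26, 0.12 and 0.38 for the ovulatory genes and -0.16, 0.22 and 0.31 for the phospholipases, beside -0.10, 0.22 and 0.22 for all genes.

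**Figure D5:**
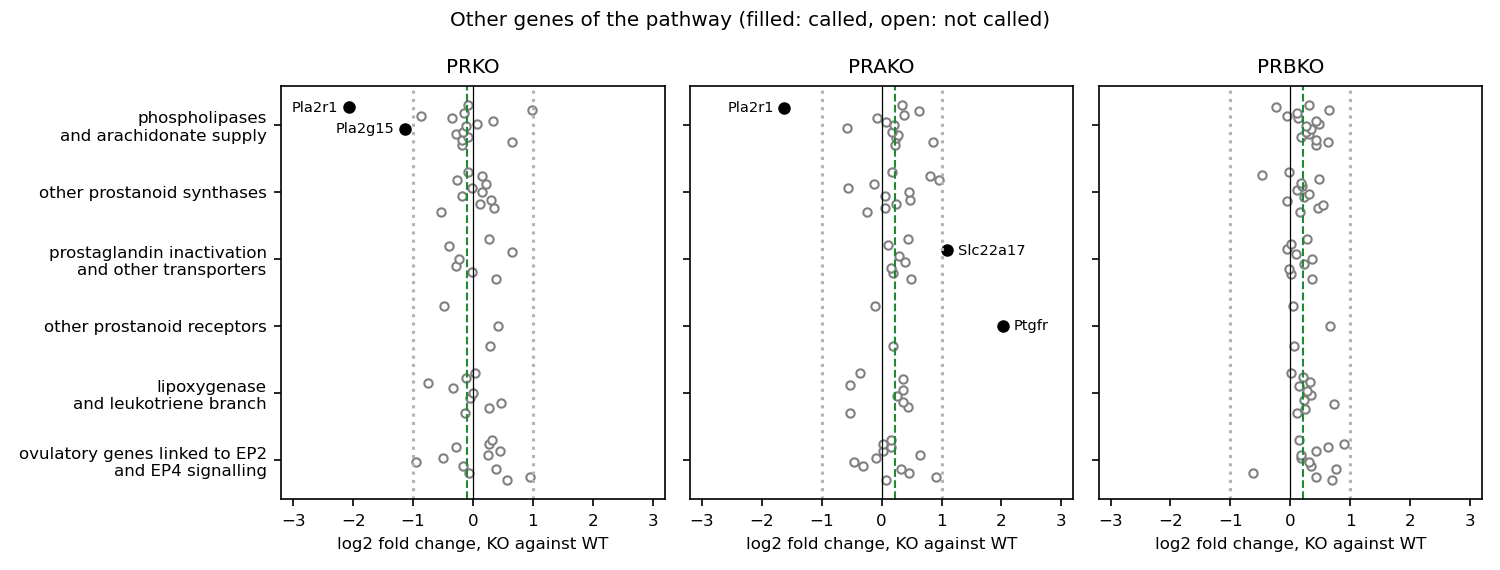
Log2 fold change of KO against WT (horizontal axis) of each tested gene of 6 further lists of the pathway, a panel per strain, filled and named where called. The dashed line marks the median of all genes and the dotted lines the fold limit, and the filled points are Pla2r1 and Pla2g15 in PRKO and Pla2r1, Slc22a17 and Ptgfr in PRAKO.

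Of the marker lists, 6 genes were called in any strain. They were Fshr, lower in PRKO (from 41.3 ± 0.819 to 10.9 ± 0.509 TPM), Lhcgr (from 64.6 ± 7.96 to 139.8 ± 7.68 TPM) and Cyp11a1, higher in PRAKO, Cdh5, given above, the theca marker Hhip, lower in PRAKO, and the cumulus marker Kcnk3, higher in PRAKO. Fshr was 1 of 12 granulosa markers tested in PRKO, where 1.82% of all genes fell. In PRAKO 2 of 12 granulosa and 1 of 8 cumulus markers rose, beside 0.841% of all genes. There 1 of 9 endothelial and 1 of 6 theca markers fell, beside 1.21% of all genes. Red cell markers summed to 55.8 to 136 TPM in PRKO WT and 185 to 322 TPM in PRKO KO, and to 75.8 to 208 TPM in PRBKO WT and 223 to 361 TPM in PRBKO KO. Oocyte markers summed to 212 to 271 TPM in PRKO WT and 164 to 194 TPM in PRKO KO, and 8 of 10 had an unadjusted p under 0.05, all lower. Smooth muscle and pericyte markers summed to 63.6 to 73.1 TPM in PRKO WT and 56.4 to 59.6 TPM in PRKO KO. Theca markers summed to 51.4 to 55.0 TPM in PRAKO WT and 40.8 to 48.4 TPM in PRAKO KO, with 6 of 6 tested at an unadjusted p under 0.05, 4 lower and 2 higher. The groups did not overlap in these sums, including those of red cells in PRKO and PRBKO. Granulosa markers also did not, at 3551 to 3629 TPM in PRKO WT and 3709 to 4019 TPM in PRKO KO. In PRAKO they were at 2628 to 2817 TPM in WT and 3878 to 4426 TPM in KO. In PRBKO the platelet sum was 47.0 to 54.5 TPM in WT and 64.5 to 79.6 TPM in KO. The sums of neutrophils, smooth muscle and cumulus were also higher without overlap in PRBKO KO. Platelets in PRAKO and endothelium in each strain, given above, did not overlap either. The lists of leukocytes, neutrophils, platelets, smooth muscle, surface epithelium, oocyte and red cells had no called gene in limma in any strain, with 0 to 8 of a list at an unadjusted p under 0.05. The part of these cells in the levels of the prostaglandin genes was not tested.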

How the data were processed

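Per the labels, granulosa cells of 3 mice were pooled per library, and total RNA was sequenced. Each strain had 1 deposited table of TPM by transcript. The study's methods and the submitters' processing notes say that the authors checked reads with FastQC, estimated levels with Salmon on GENCODE for GRCm38.p6 and used edgeR and limma. Tool versions are not given in the sources used here. These tables list RefSeq transcripts, for a reason not stated. The study's methods give a range of read depth over the granulosa cell libraries. TPM keeps no counts, so the depth of each library was unknown here. No test, interval or floor based on counts was given.

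Of 42251 transcripts, 42072 were matched to RefSeq genes and summed. The other 179 held 0.963% to 1.61% of TPM and were left out. Groups were taken from the sample labels. Each strain was fitted alone with limma 3.58.1 (R 4.3.3) on log2(TPM + 0.5) with a trended prior, so a fold change is on that scale, two-sided, for genes with at least 1 TPM in 3 of 6 libraries, adjusted by the Benjamini-Hochberg method over all genes tested (13910, 13910 and 14329). The study's limma analysis used voom, whose weights need counts. Calls took an adjusted p not above 0.01 and a log2 fold change of 1 or more either way. Differences between strains were contrasts over all 18 libraries for genes with 1 TPM in 9 of them. Ratios were tested by exact permutation.

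The members, 6 pathway lists and 11 marker lists were chosen with earlier results of these data known, and support nothing by themselves. Named were all members, transcripts of a gene with a second transcript of at least 5% in a group, and of each list the genes called and up to 3 more by smallest p. Promoter windows were RefSeq's, GRCm38.p6, for all 10 genes. The alternatives were other pseudocounts, filters, scalings, priors, weights, thresholds, a replicate block, a fit of all 18 libraries and leaving out each library. Fits were tested on simulated data. Replicate r was 0.967 or more. Python 3.11.15, pandas and matplotlib drew the figures.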

Additional observations from a re-analysis of the deposited data

Results flagged for a closer look

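There were 4 results listed because the KO effect on a gene differed between strains in the test of the difference itself (limma, Benjamini-Hochberg adjusted, 18 libraries). The Ptgs1 effect in PRKO less that in PRBKO was -1.77 on the log2 scale (adjusted p = 1.88e-05), and in PRAKO less that in PRBKO -1.10 (adjusted p = 0.00302). The Slco2a1 effect in PRKO less that in PRBKO was -1.02 (adjusted p = 0.000132), and in PRAKO less that in PRBKO -1.97 (adjusted p = 4.48e-07). All KO libraries were below all WT libraries for Ptgs1 in PRKO and PRAKO and for Slco2a1 in all 3 strains. The PRBKO KO libraries, which enter all of these, held the highest share of protein-coding TPM (50.9% to 61.2%), and the part of that in the differences was not tested. The median difference of all genes was -0.31 between PRKO and PRBKO and -0.00 between PRAKO and PRBKO.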

How the results depend on the processing

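The calls of Slco2a1 in PRKO and PRAKO were kept under all alternatives run. With median-of-ratios size factors, quantile normalization and rescaling to protein-coding genes, 1 member was called between PRKO and PRAKO (Slco2a1) and 1 between PRKO and PRBKO (Ptgs1), and so it was with array weights. Of 13977 genes, 34 to 36 differed between PRKO and PRAKO and 264 to 292 between PRKO and PRBKO under these scalings. With array weights 341 differed between PRKO and PRAKO, and between PRKO and PRBKO 715 were lower and 31 higher. With size factors and with protein-coding rescaling 2 members were called in PRAKO (Ptgs1 and Slco2a1), beside 224 of 13910 genes lower under each. At an adjusted p of 0.05 and no fold limit 4 of 9 were called in PRAKO, 1 of 9 in PRBKO and 3 of 9 between PRKO and PRAKO. Of all genes 4797 of 13910, 498 of 14329 and 2112 of 13977 passed, in the same order. Leaving out a library gave 1 to 2 called members in PRKO, 0 to 1 between PRKO and PRAKO, 1 to 2 between PRKO and PRBKO and 1 to 2 between PRAKO and PRBKO. Of all genes, 223 to 289 of 13910 were then called in PRKO. Between strains the counts of 13977 genes were 37 to 133, 462 to 659 and 259 to 313, in the same order.

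Values near 0 and not called changed sign. In the order size factors, quantile normalization, protein-coding rescaling, they were 0.041, 0.057 and 0.032 for Ptges3 and 0.068, 0.071 and 0.059 for Hpgd in PRKO, -0.080, -0.061 and -0.082 for Ptges3 and -0.018, -0.011 and -0.021 for Ptger4 in PRAKO, and 0.0028, 0.049 and 0.075 for the Ptgs2 difference between PRKO and PRBKO. In PRBKO Ptges3 was at -0.010 with quantile normalization, and with protein-coding rescaling Ptgs1 was at -0.018, Ptges2 at -0.014 and Ptges3 at -0.022. Array weights, whose estimation stopped before convergence in 4 of 6 fits (PRBKO and the 3 differences), gave 0.017 for Ptges3 and -0.14 for Abcc4 in PRKO, and 0.13 and 0.19 for Hpgd in PRAKO and PRBKO, and took Ptgs2 in PRKO to 0.63 (adjusted p = 0.0117). Without single libraries the ranges were -0.033 to 0.031 for Ptges, -0.038 to 0.095 for Ptges2, -0.21 to 0.068 for Hpgd and -0.044 to 0.15 for Abcc4 in PRKO, -0.13 to 0.088 for Hpgd in PRAKO, -0.32 to 0.086 for Hpgd in PRBKO and -0.016 to 0.42 for the Ptgs2 difference between PRKO and PRAKO. The cause was not tested.

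The main fits did not pair samples by replicate number. Deviations of KO and WT libraries with the same number correlated at 0.15, -0.15 and 0.08 in PRKO, -0.04 and -0.01 in PRAKO and 0.03 and 0.04 in PRBKO. Those with different numbers correlated at -0.28 to 0.22, so so few pairs cannot show whether the numbers pair the samples. With the replicate block 1 member was called in PRKO (Slco2a1, Ptgs1 at adjusted p = 0.0106), 1 between PRKO and PRBKO (Ptgs1, Slco2a1 at -0.91 and adjusted p = 0.0142) and 1 between PRAKO and PRBKO (Slco2a1, Ptgs1 at -1.08 and adjusted p = 0.129), and the block moved the count of all genes called in PRBKO from 19 to 302 and in PRAKO from 285 to 464.

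Counts over all genes moved by over 1.5 times elsewhere too. PRKO had 297 calls, 449 with array weights and 1385 at an adjusted p of 0.05 with no fold limit, PRAKO 184 at a mean of 5 TPM and 4797 at that p, and PRBKO 4 with no filter, 34 at a mean of 5 TPM, 3 with size factors, 0 with quantile normalization, 8 after rescaling, 37 in the fit of all libraries, 498 at that p and 6 to 48 without single libraries. Between PRKO and PRAKO 74 differences became 34 to 36 under the other scalings, 341 with array weights, 2112 at that p and 0 with the block. Between PRKO and PRBKO 538 became 264 to 292 under those scalings and 4086 at that p, and between PRAKO and PRBKO 296 became 868 at that p and 106 with the block. TPM hides the depth of each library, so low genes such as Ptger2 have no stated precision from counts.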
